A study of Homo sapiens with 48 samples.

Results

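The 10 genes described here encode the inhibitors of cyclin-dependent kinases (CDKs) and the retinoblastoma family: CDKN1A, CDKN1B, CDKN1C, CDKN2A, CDKN2B, CDKN2C, CDKN2D, RB1, RBL1 and RBL2. They were chosen by gene name from the 19509 genes with counts, and 164 of the 363278 splicing events of the series lie in them. mRNA was sequenced from IMR90 ER:RAS cells, human lung fibroblasts carrying an HRAS G12V protein fused to part of the estrogen receptor, so that 4-hydroxytamoxifen (4OHT) switches RAS on. The 48 libraries form 6 groups of 8, and no group lacks the fusion: siNT, siSF3B1 or siRBM39 in cells given the vehicle DMSO, and the same 3 in cells given 4OHT. Cells had been treated for 6 days when they were transfected, and RNA was taken 48 h later in medium with 0.5% serum. Each target was represented by 2 siRNAs (siNT1 and siNT2, siSF3B1-13 and siSF3B1-16, siRBM39-06 and siRBM39-08) with 4 replicates per treatment. SF3B1 is a core part of the U2 snRNP, which recognises the branch site of introns, and RBM39 is a splicing factor that works with it. No libraries of cells without the fusion were used here, so 4OHT itself and RAS cannot be told apart, and p-values measure the spread between these samples. The study's methods call in vitro replicates independent experiments, while the labels do not say which libraries share a culture.

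CDK4 and CDK6 with D-type cyclins, and CDK2 with cyclin E, phosphorylate the RB family and so release E2F transcription factors, which switch on the genes of DNA replication. The CIP/KIP inhibitors (CDKN1A, which encodes p21, CDKN1B, p27, and CDKN1C, p57) bind cyclin-CDK complexes, chiefly those of CDK2. The INK4 inhibitors (CDKN2A, p16, CDKN2B, p15, CDKN2C, p18, and CDKN2D, p19) bind CDK4 and CDK6 directly. RB1 holds the activating E2F factors, while RBL1 (p107) and RBL2 (p130) hold the repressive ones, and p130 is the main partner of the DREAM complex in resting cells. In fibroblasts, activated RAS is a classical trigger of senescence, and p16 and p21 are its best-known effectors.

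The libraries held 31467221 to 52734636 counts. SF3B1 mRNA was 10.9-fold lower after siSF3B1 in DMSO and 12.04-fold lower in 4OHT, and RBM39 mRNA was 6.22-fold and 7.39-fold lower after siRBM39. RBM39 rose after siSF3B1 (log2 fold change 0.83 in DMSO and 1.06 in 4OHT). The summed cRPKM (an RPKM, which scales reads by transcript length and depth, corrected for mappability) of 10 fibroblast markers was 8424 to 9353 in DMSO siNT and 1408 to 1550 in 4OHT siNT, and no marker was at 0 throughout a group. The 5 epithelial markers with values summed to between 5.01 and 31.9 in all libraries but 1. That library, 4OHT siRBM39-08 replicate 4, reached 65.1 against 10.6 in the next highest of its group. The muscle markers, almost all ACTA2, fell in sum from 155 to 187 in DMSO siNT to 35.9 to 40.4 in 4OHT siNT, and the endothelial markers stayed under 1. Of the leukocyte markers, CD68 made up nearly all of the sum of 45.5 to 53.5 in 4OHT siNT (23.6 to 30.3 in DMSO siNT), and CD3E was at 0 in both siNT groups. The part of these markers in the results was not tested, and in bulk RNA fewer cells with a transcript and less of it per cell cannot be told apart.

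Among the 10 genes CDKN1A was the most abundant per length in each of the 6 groups. In DMSO siNT its cRPKM ran from 426 to 478, and CDKN2A followed with 33.8 to 38.95. CDKN1B (17.5 to 21.3), RBL2 (16.0 to 17.5) and CDKN2B (14.7 to 17.9) came next, and the range of CDKN2B overlapped those of the other two. RB1 (12.46 to 14.4 cRPKM), CDKN1C (7.20 to 10.5), CDKN2D (2.63 to 4.10), CDKN2C (1.77 to 2.35) and RBL1 (1.22 to 1.49) completed the order without overlap. In 4OHT siNT the order was different. CDKN1A stood at 751 to 854 cRPKM, and CDKN2B had moved to the next place with 74.9 to 93.9, above CDKN2A with 53.3 to 61.0. RB1 (12.7 to 15.3) overlapped RBL2 (11.5 to 13.0), CDKN1B (4.64 to 5.60) overlapped CDKN2D (3.82 to 5.22), and CDKN1C (0.57 to 0.82) overlapped RBL1 (0.45 to 0.69). CDKN2C was the lowest, at 0.12 to 0.22 cRPKM.

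**Figure D1:**
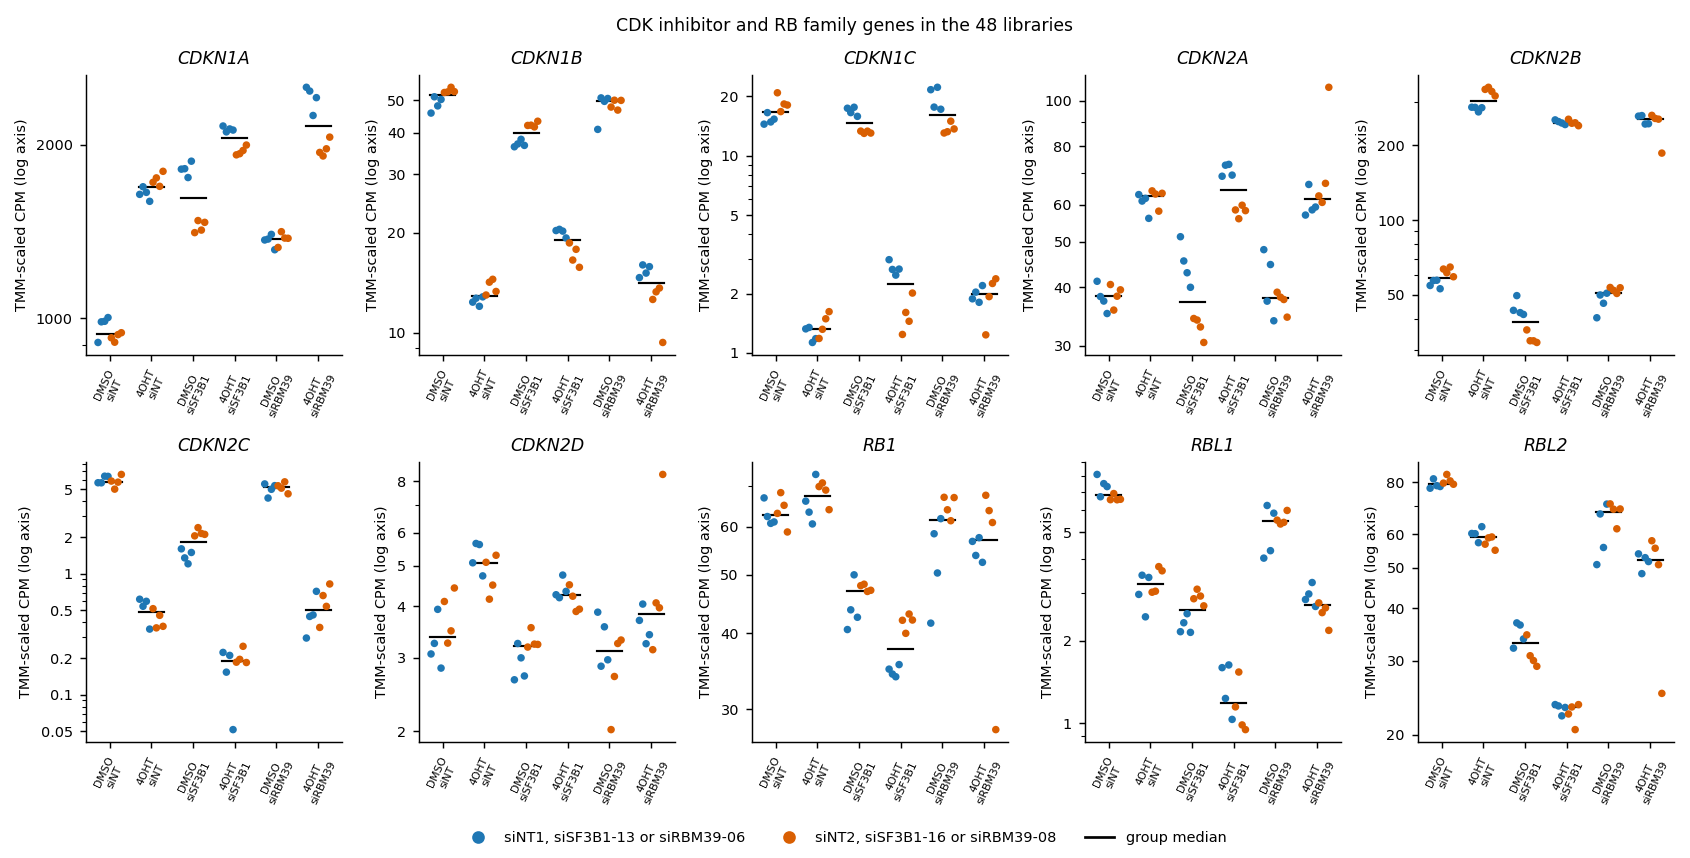
Level of the 10 genes in each of the 48 libraries, as CPM (counts scaled to a common library total, here by TMM), on log axes that differ between panels, with 1 point per library coloured by siRNA and a bar at the group median. CDKN2B, CDKN1A and CDKN2A were higher and CDKN1B, CDKN1C, CDKN2C and RBL1 lower in 4OHT siNT than in DMSO siNT without overlap, and the group medians of RBL2 were lowest after siSF3B1.

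To learn how oncogenic RAS changed these genes, 4OHT siNT was compared with DMSO siNT on the read counts with TMM scaling. A gene was called when edgeR's quasi-likelihood test gave a p under 0.05 after Benjamini-Hochberg adjustment, and CPM values describe the levels. CDKN2B, CDKN1A and CDKN2A rose, while CDKN1B, CDKN1C and RBL2 fell and RB1 did not pass. That is 6 of the 7 genes tested, against 78.1% of all 9991 genes with at least 10000 counts, so the share of calls is near the background. The median log2 fold change over the 7 was 0.08, beside -0.00 over all genes. CDKN2C, CDKN2D and RBL1 had under 10000 counts in total (4583, 7295 and 7166) and were read from a fit over the 17872 genes with at least 1 count, of which 63.6% were called.

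The CIP/KIP genes split. CDKN1A, which arrests the cycle downstream of p53, had 908, 941 and 1003 CPM (lowest, median and highest) in DMSO siNT and 1595, 1692 and 1798 CPM in 4OHT siNT. The groups did not overlap, and the log2 fold change was 0.83 (SE 0.06, adjusted p = 2.3e-18). CDKN1B, whose protein keeps resting cells out of the cycle, went the other way. It had 45.8, 52.0 and 54.7 CPM in DMSO siNT and 12.006, 12.9 and 14.5 CPM in 4OHT siNT, a 3.90-fold fall (log2 fold change -1.96, SE 0.07). CDKN1C, an imprinted gene whose protein slows growth in development, fell furthest of the 3. Its level was 14.4, 16.6 and 20.8 CPM in DMSO siNT and 1.13, 1.32 and 1.62 CPM in 4OHT siNT, 12.7-fold lower (log2 fold change -3.66, SE 0.15).

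The INK4 genes split as well, and the neighbours CDKN2A and CDKN2B on chromosome 9 both rose. CDKN2B, a gene known to respond to TGF-beta, rose 5.20-fold, from 52.9, 58.2 and 64.7 CPM to 273, 300.2 and 342 CPM (log2 fold change 2.38, SE 0.07, adjusted p = 2.2e-31). CDKN2A rose 1.61-fold, from 35.1, 38.2 and 41.2 CPM to 56.1, 62.4 and 64.2 CPM (log2 fold change 0.68, SE 0.10). No library of either group overlapped with the other for these 2 genes. CDKN2C fell 11.9-fold, from 4.998, 5.77 and 6.61 CPM to 0.349, 0.484 and 0.616 CPM (log2 fold change -3.57, SE 0.15). CDKN2D was 2.84, 3.37 and 4.42 CPM in DMSO siNT and 4.16, 5.09 and 5.66 CPM in 4OHT siNT. It rose (log2 fold change 0.57, SE 0.12), although the ranges overlapped.

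Counts of CDKN2A as a gene cannot separate p16 from ARF, which starts from another first exon and shares the second in a different reading frame. Junction reads from exon 1 alpha, the first exon of p16, to exon 2 could be read from an event of the splicing table. They summed to 19 in DMSO siNT, with 0 to 6 per library, and to 91 in 4OHT siNT, with 4 to 20. Scaled to library totals the means were 0.061 and 0.291 CPM, a 4.77-fold difference (two-sided exact permutation test, p = 0.0017, 6 of 8 libraries above all DMSO siNT libraries). The junction between exons 2 and 3, which lies outside the first exons, went from 0.911 to 1.35 CPM (1.49-fold, exact p = 0.0054). After siRBM39 in DMSO the p16 junction stood at 0.210 CPM with 71 reads (exact p = 0.0047), while the exon 2 to 3 junction was at 0.882 CPM (exact p = 0.79). The other 6 of the 10 junction comparisons gave exact p between 0.063 and 0.94. These are raw p-values, and the read numbers are small.

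In the RB family the 3 genes differed. RB1 had 58.8, 62.7 and 68.2 CPM in DMSO siNT and 60.6, 67.5 and 73.1 CPM in 4OHT siNT (log2 fold change 0.08, SE 0.10, adjusted p = 0.42, 95% interval -0.10 to 0.27). RBL2, the family member of resting cells, fell from 77.4, 79.3 and 83.4 CPM to 55.0, 59.0 and 62.6 CPM without overlap (log2 fold change -0.44, SE 0.09). RBL1, itself an E2F target, fell 2.08-fold, from 6.56, 6.82 and 8.12 CPM to 2.45, 3.23 and 3.74 CPM (log2 fold change -1.06, SE 0.10).

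RBL1 was the only member with an E2F-type motif in the RefSeq promoter table (GRCh38.p14, 250 bases before to 50 after the start), in which 9 of the 10 members had 13 promoters between them. The motifs searched on both strands were TTTCGCGC, TTTGGCGC, TTTCCCGC and TTTGCCGC, and 1164 of 35116 promoters (3.31%) held at least 1. The 50 bases before the RBL1 start, at chr20:37095998-37096047 on the minus strand, are shown because both motifs of this promoter lie in them, in capitals, beginning 26 and 16 bases before the start.
RBL1 promoter: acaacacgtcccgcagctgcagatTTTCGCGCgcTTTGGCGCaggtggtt
The match describes these letters and was not tested for binding.

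**Figure D2:**
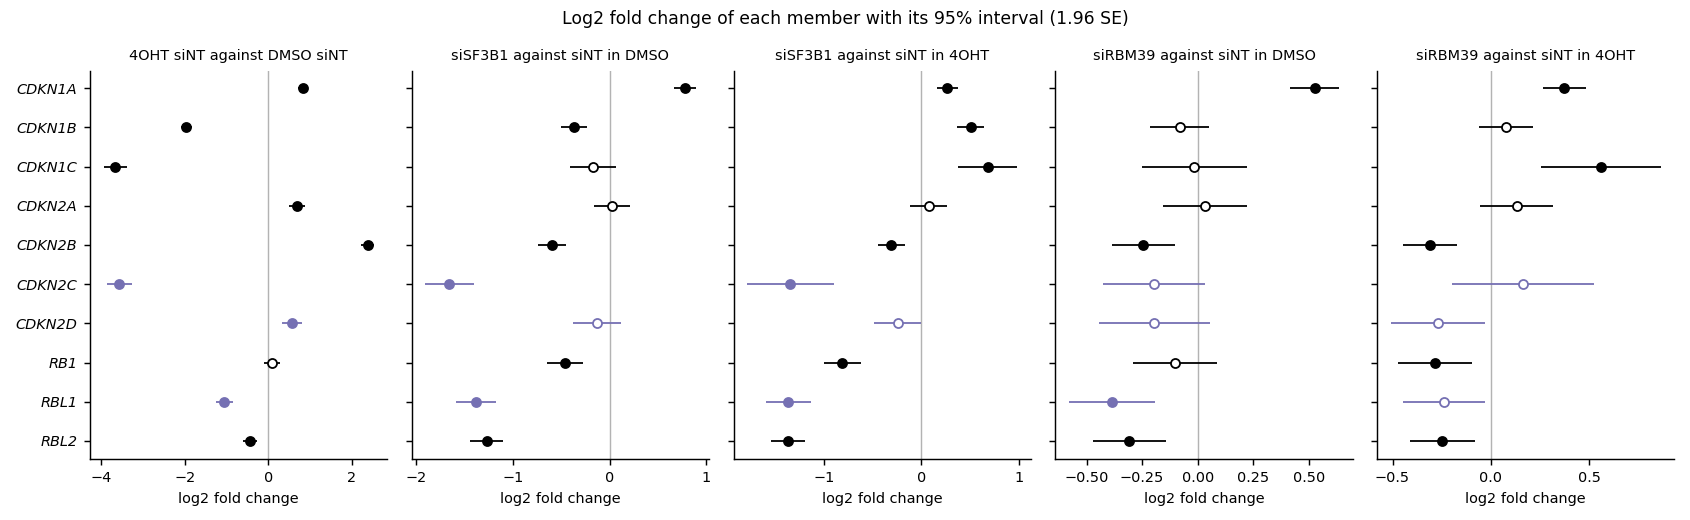
Log2 fold change of each gene in 5 comparisons with bars for the 95% interval, filled where the gene was called and open where it was not, with the 3 genes from the fit with at least 1 count in violet. RBL2 and RBL1 lie left of 0 in all 5 panels, CDKN1A lies right of 0 in all 5, and CDKN1B changes side between siSF3B1 in DMSO and in 4OHT.

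SF3B1 was depleted to ask what the cells lose with or without RAS. The RB family fell in either treatment. RBL2 fell 2.42-fold in DMSO and 2.58-fold in 4OHT, RBL1 fell 2.61-fold and 2.57-fold, and RB1 fell 1.38-fold and 1.75-fold. Of the 7 genes tested, 5 were called in DMSO (72.7% of all genes) and 6 in 4OHT (77.0%), which is again near the background. In the fit with at least 1 count, 56.1% and 57.7% of genes were called. The medians over the 7 genes were -0.37 and 0.07, beside 0.02 and 0.03 over all genes. All comparisons in DMSO share the DMSO siNT libraries, and all in 4OHT share the 4OHT siNT libraries.

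RBL2 after siSF3B1 was at 29.1, 32.99 and 36.9 CPM in DMSO and at 20.6, 23.3 and 23.6 CPM in 4OHT. All 8 libraries lay below all siNT libraries in each treatment (log2 fold change -1.27, SE 0.09, and -1.37, SE 0.09). RBL1 was at 2.15, 2.60 and 3.09 CPM in DMSO and at 0.948, 1.19 and 1.63 CPM in 4OHT, also without overlap (log2 fold change -1.39, SE 0.10, and -1.36, SE 0.12). RB1 was at 40.6, 47.01 and 49.96 CPM in DMSO and at 33.9, 37.8 and 43.1 CPM in 4OHT, below all siNT libraries (log2 fold change -0.46, SE 0.10, and -0.81, SE 0.10).

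Of the CIP/KIP genes, CDKN1A rose after siSF3B1 in DMSO to 1408, 1616 and 1873 CPM (log2 fold change 0.78, SE 0.06), a range that spanned that of 4OHT siNT. In 4OHT it rose further, to 1921, 2051 and 2155 CPM (log2 fold change 0.27, SE 0.06). CDKN1B moved in opposite directions. It fell in DMSO to 36.2, 39.9 and 43.3 CPM (log2 fold change -0.37, SE 0.07) and rose in 4OHT to 15.7, 18.9 and 20.5 CPM (log2 fold change 0.51, SE 0.07), without overlap with siNT in either. CDKN1C did not pass in DMSO (13.0, 14.6 and 17.6 CPM, log2 fold change -0.17, adjusted p = 0.20) and rose in 4OHT, where it stood at 1.24, 2.25 and 2.97 CPM (log2 fold change 0.68, SE 0.16, adjusted p = 1.3e-04).

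Of the INK4 genes, CDKN2B fell to 32.2, 38.9 and 49.7 CPM in DMSO (log2 fold change -0.60, SE 0.07) and to 239.7, 246 and 255 CPM in 4OHT (log2 fold change -0.31, SE 0.07), without overlap. CDKN2C fell 3.16-fold in DMSO and 2.54-fold in 4OHT, where single libraries held as few as 2 counts. CDKN2A did not pass as a pooled group, with log2 fold changes of 0.03 (95% interval -0.16 to 0.21) and 0.07 (-0.11 to 0.26). Its 8 libraries in DMSO spread from 30.5 to 51.2 CPM, and the siRNAs lay on opposite sides, as described further on. CDKN2D did not pass either, at -0.14 in DMSO and -0.24 in 4OHT on the log2 scale (adjusted p = 0.38 and 0.092). The library 4OHT siRBM39-08 replicate 4 is in the same model though outside these groups. Without it CDKN2D was called in 4OHT (-0.24, SE 0.09, adjusted p = 0.021).

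After siRBM39, CDKN1A rose in DMSO to 1315, 1375 and 1413 CPM and in 4OHT to 1912, 2154 and 2515 CPM (log2 fold change 0.53, SE 0.06, and 0.37, SE 0.06), in each case above all siNT libraries. CDKN2B and RBL2 fell in each treatment. In DMSO 3 of the 7 genes were called (46.1% of all genes) and in 4OHT 5 (56.4%), and in the fit with at least 1 count 32.9% and 40.3% of genes were. The medians over the 7 were -0.08 and 0.08, beside 0.02 and 0.05.

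CDKN2B was at 40.4, 50.7 and 53.5 CPM after siRBM39 in DMSO (log2 fold change -0.24, SE 0.07) and at 186, 256 and 264 CPM in 4OHT (log2 fold change -0.31, SE 0.07). RBL2 was at 50.9, 68.1 and 71.0 CPM in DMSO and at 25.1, 52.3 and 58.0 CPM in 4OHT (log2 fold change -0.31, SE 0.08, and -0.25, SE 0.09). These 2 calls in DMSO did not hold without replicate 3 (adjusted p = 0.060 for CDKN2B and 0.056 for RBL2). RB1 did not pass in DMSO (log2 fold change -0.10, adjusted p = 0.40) and fell in 4OHT (log2 fold change -0.28, SE 0.10, adjusted p = 0.011). RBL1 fell in DMSO (log2 fold change -0.39, SE 0.10) and did not pass in 4OHT (-0.24, adjusted p = 0.070). CDKN1C stayed near siNT in DMSO (log2 fold change -0.02) and rose in 4OHT to 1.24, 1.98 and 2.38 CPM (log2 fold change 0.56, SE 0.16). CDKN1B, CDKN2A, CDKN2C and CDKN2D did not pass in either treatment.

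The library 4OHT siRBM39-08 replicate 4 stood apart in 5 of the 10 genes, with RB1 at 27.8, RBL2 at 25.1, CDKN2A at 106.8, CDKN2B at 186 and CDKN2D at 8.30 CPM. Without it the fall of RBL2 in 4OHT was -0.15 (SE 0.05, adjusted p = 0.015) and that of RB1 was -0.19 (SE 0.07, adjusted p = 0.020), each still called but smaller. CDKN2A then stood at 0.00 (SE 0.08), CDKN2B at -0.26 (SE 0.07) and CDKN1A at 0.38 (SE 0.06). CDKN1B (log2 fold change 0.14, adjusted p = 0.041) and CDKN2D (log2 fold change -0.45, adjusted p = 9.3e-05) were not called in edgeR with it, and CDKN2D was called with it in limma-voom (-0.33, adjusted p = 0.017). With replicate 4 of each siRNA left out, RB1 and RBL2 were not called (adjusted p = 0.12 and 0.051).

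Whether RAS changed the response to a knockdown was tested as an interaction. For siSF3B1, 5 of the 7 genes passed (37.8% of all genes, and 25.6% in the fit with at least 1 count). CDKN1B gave the largest difference, with a log2 fold change 0.87 higher in 4OHT than in DMSO (SE 0.10, adjusted p = 6.0e-10). CDKN1C followed with 0.85 (SE 0.20, adjusted p = 5.1e-04). The rise of CDKN1A was smaller in 4OHT, by -0.51 (SE 0.08, adjusted p = 1.0e-06). RB1 fell more in 4OHT (-0.35, SE 0.14, adjusted p = 0.040) and CDKN2B fell less (0.29, SE 0.10, adjusted p = 0.020). RB1 did not pass without replicate 2 or 3 (adjusted p = 0.15 in each), nor CDKN2B without replicate 1 or 3 (adjusted p = 0.089 and 0.14) or with genes of at least 1 count (adjusted p = 0.10). RBL2 and RBL1, the 2 that fell most after siSF3B1 in the RB family, gave differences of -0.10 (95% interval -0.33 to 0.14) and 0.02 (-0.30 to 0.34). For siRBM39, 1 of the 7 genes passed (14.1% of all genes, 8.47% with at least 1 count), CDKN1C with 0.58 (SE 0.20, adjusted p = 0.040). It did not pass in limma-voom (adjusted p = 0.085) or without replicate 2, 3 or 4.

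The siRNAs of a target were then separated in a model with 1 group per siRNA and treatment. No member was called between siNT2 and siNT1 in edgeR, of 7 tested in each treatment (1.63% of all genes in DMSO, 0.350% in 4OHT). At an unadjusted p under 0.05, CDKN1C and CDKN2B stood out in DMSO, and CDKN1A and CDKN2B in 4OHT. Against siNT, siSF3B1-13 gave 6 calls in DMSO and 7 in 4OHT (76.2% and 79.2% of all genes) and siSF3B1-16 gave 7 and 5 (71.9% and 75.4%). siRBM39-06 gave 4 and 5 calls (59.7% and 58.6%) and siRBM39-08 gave 3 and 6 (49.5% and 62.5%).

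RBL2, RB1 and RBL1 fell with either SF3B1 siRNA in both treatments. RBL2 fell by 1.19 with siSF3B1-13 and by 1.36 with siSF3B1-16 on the log2 scale in DMSO, and by 1.35 and 1.39 in 4OHT. The difference between the siRNAs was -0.16 (SE 0.12, adjusted p = 0.33) and -0.04 (SE 0.13, adjusted p = 0.86). RB1 fell by 0.52 and 0.41 in DMSO and by 0.95 and 0.68 in 4OHT, and its difference of 0.27 (SE 0.13) in 4OHT did not pass (adjusted p = 0.13). For RBL1 the differences, 0.33 and -0.28, did not pass either (adjusted p = 0.077 and 0.33).

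Several inhibitor genes differed between the siRNAs of a target. Between siSF3B1-16 and siSF3B1-13, 5 of the 7 genes differed in DMSO (37.3% of all genes) and 4 in 4OHT (27.9%), none of them of the RB family. CDKN2A rose with siSF3B1-13 (39.96 to 51.2 CPM in the 4 DMSO libraries, log2 fold change 0.23, adjusted p = 0.021) and fell with siSF3B1-16 (30.5 to 34.3 CPM, log2 fold change -0.22, adjusted p = 0.038). In 4OHT the log2 fold changes of CDKN2A were 0.21 and -0.08, and the difference between the siRNAs passed in each treatment (-0.45, SE 0.11, and -0.29, SE 0.11). CDKN1C rose 2.03-fold in 4OHT with siSF3B1-13 (2.48 to 2.97 CPM) and did not pass with siSF3B1-16 (1.24 to 2.01 CPM, adjusted p = 0.059). CDKN1A rose by 0.93 and 0.60 in DMSO and by 0.33 and 0.20 in 4OHT. CDKN2B fell by 0.41 and 0.81 in DMSO and by 0.30 and 0.31 in 4OHT.

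Between siRBM39-08 and siRBM39-06, 2 of the 7 genes differed in DMSO (47.6% of all genes) and 3 in 4OHT (31.6%). CDKN1C rose in DMSO with siRBM39-06 (17.2 to 22.2 CPM, log2 fold change 0.23, adjusted p = 0.021) and fell with siRBM39-08 (13.0 to 14.9 CPM, log2 fold change -0.29, adjusted p = 0.0051), so the pooled value near 0 joins opposite calls. CDKN2B differed by 0.16 in DMSO (adjusted p = 0.048). In 4OHT CDKN1A rose more with siRBM39-06 than with siRBM39-08 (0.51 and 0.22), and CDKN1B rose with siRBM39-06 (0.23, adjusted p = 0.0010) and did not pass with siRBM39-08 (-0.10). CDKN2A was called with siRBM39-08 in 4OHT (0.27, adjusted p = 0.0090), a group that includes the library at 106.8 CPM beside 60.6, 62.6 and 66.6 CPM.

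**Figure D3:**
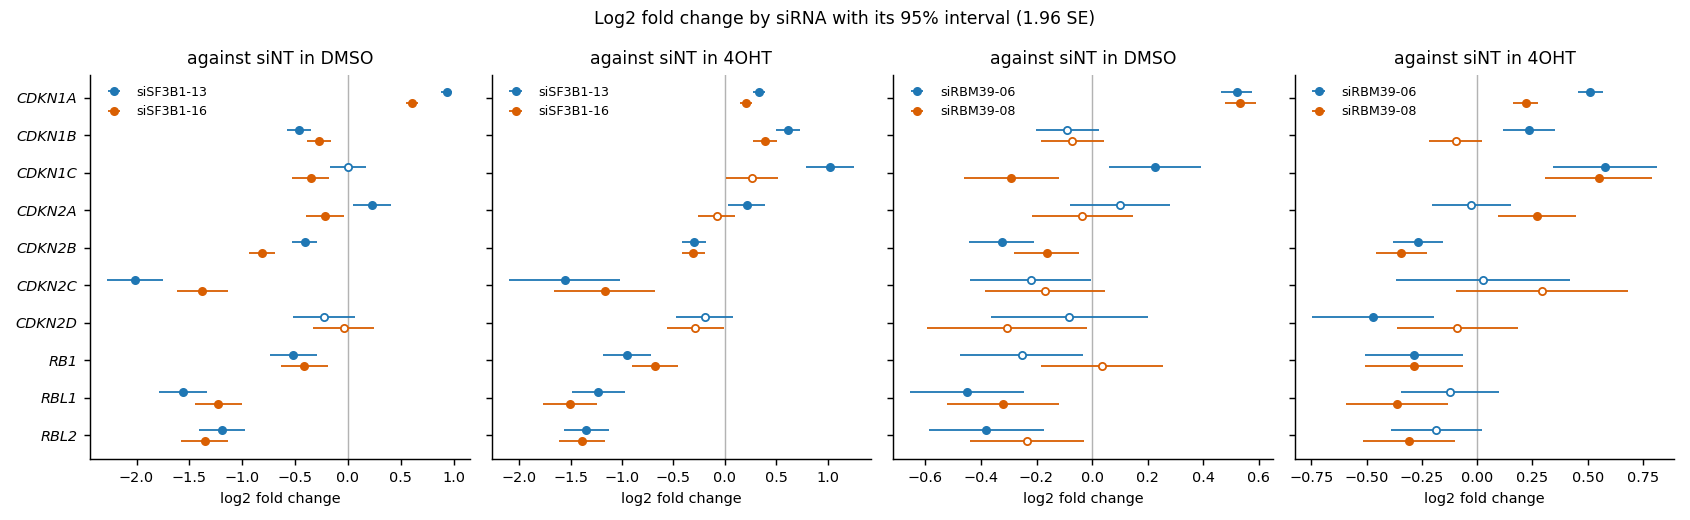
Log2 fold change of each gene against siNT by siRNA, with bars for the 95% interval and filled points where the gene was called, in 4 panels with their own axes. RBL2, RB1 and RBL1 lie left of 0 with either SF3B1 siRNA in both treatments, while CDKN2A in DMSO lies right of 0 with siSF3B1-13 and left of 0 with siSF3B1-16.

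The genes around these inhibitors were read from 6 lists, whose largest called rise and fall are named. Of all 9991 genes, 3892 were called higher and 3906 lower with RAS. After siSF3B1, 3648 rose and 3620 fell in DMSO, and 3941 and 3755 in 4OHT. After siRBM39, 2387 rose and 2218 fell in DMSO, and 3216 and 2423 in 4OHT. Most of the E2F target genes tested, a list of DNA replication genes with some cyclins and an E2F factor, fell with RAS and after siSF3B1. In this order 11, 12, 11, 6 and 6 of the 13 tested were called. The shares over all genes were 78.1%, 72.7%, 77.0%, 46.1% and 56.4%. With RAS 10 of 13 tested fell and 1 rose, led by TK1 (log2 fold change -3.66, SE 0.22), and CCNE1 was the one that rose (1.38, SE 0.12). After siSF3B1, 9 fell and 3 rose in DMSO, and 9 fell and 2 rose in 4OHT. CCNA2, the S phase cyclin, fell most (-1.85 in DMSO and -0.95 in 4OHT), and CCNE1 in DMSO (0.61) and MCM2 in 4OHT (0.87) rose most. After siRBM39, 2 fell and 4 rose in DMSO (TK1 -0.48, CCNE1 0.56), and 1 fell and 5 rose in 4OHT (TYMS -0.22, MCM2 0.39). The medians of the list were -0.66, -0.43, -0.63, -0.04 and 0.14 in the same order, beside medians of all genes between -0.00 and 0.05.

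Of the G1 cyclins and their kinases, 14 of 16 could be tested. With RAS 8 rose and 4 fell, with CCND2, a D-type cyclin, up (1.39, SE 0.08) and CCNA2 down (-2.07, SE 0.12). After siSF3B1, 5 rose and 6 fell in DMSO (CCND2 1.22, CCNA2 -1.85), and 2 rose and 8 fell in 4OHT, where CDK2 rose by 0.84 (SE 0.07) and CCNH, a subunit of the CDK-activating kinase, fell most (-1.68, SE 0.10). CCNH also fell most after siRBM39 (-1.11 in DMSO and -1.28 in 4OHT). There 5 rose and 3 fell in DMSO, led by CCNE1 (0.56), and 1 rose and 5 fell in 4OHT, CDK2 being the one that rose (0.56). Medians were 0.25, -0.23, -0.28, 0.04 and -0.06. CCNE1 and CCNA2 stand in this list and in the E2F target list.

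Of the E2F and DP factors, 7 of 10 were tested. With RAS 5 rose and 1 fell, led by E2F7, a repressive E2F (3.10, SE 0.21), with the partner TFDP2 down (-1.45, SE 0.06). After siSF3B1, 4 rose and 3 fell in DMSO (E2F7 1.89, E2F5 -0.59), and 5 rose and 2 fell in 4OHT (E2F6 1.01, E2F5 -0.78). After siRBM39, 1 rose and 2 fell in DMSO, and 2 rose and 1 fell in 4OHT, with E2F6 up by 0.23 and 0.33 and TFDP1 down by 0.27 and 0.27 on the log2 scale. Medians were 0.37, 0.63, 0.61, 0.11 and -0.00. Of the MuvB and DREAM partners, 6 of 8 were tested, and FOXM1, which drives mitotic genes, fell most with RAS (-2.65, SE 0.09) and after siSF3B1 (-0.68 and -0.39). With RAS 4 fell and 1 rose (LIN37, a MuvB subunit, 0.59). After siSF3B1, 3 rose and 1 fell in each treatment, and DYRK1A, a kinase that promotes the assembly of DREAM, rose most (0.52 and 0.96). After siRBM39, 1 rose and 1 fell in DMSO (LIN37 0.30, FOXM1 -0.24) and 2 rose in 4OHT (FOXM1 0.53). Medians were -0.30, 0.12, 0.16, 0.09 and 0.21.

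Among regulators of the inhibitor genes, 19 of 21 were tested. With RAS 8 rose and 10 fell, with ID1, an inhibitor of the factors that activate CDKN2A, up (1.56, SE 0.15) and EZH2, the Polycomb methyltransferase that silences the CDKN2A locus, down (-0.98, SE 0.07). After siSF3B1, 10 rose and 4 fell in DMSO and 9 rose and 6 fell in 4OHT. KDM6B, a demethylase acting against Polycomb, rose most (0.81 and 1.14), and ID1 (-1.12) and the Polycomb subunit EED (-0.91) fell most. After siRBM39, 4 rose and 4 fell in DMSO (ETS1 0.44) and 7 rose and 3 fell in 4OHT (KDM6B 0.58), and EZH2 fell most in each (-0.54 and -0.49). Medians were -0.18, 0.20, 0.12, 0.01 and 0.10. In a list of ubiquitin ligase parts, chosen as protein-level regulators of CDK inhibitors, 6 of 8 names were tested (CDT2 is another name of DTL). Whether each part acts on an inhibitor protein was not tested. With RAS 1 rose (CUL1, 0.16) and 3 fell (FBXO31, -0.40). After siSF3B1, 3 rose and 3 fell in each treatment, with FBXO31 up (0.60 and 0.86) and CUL1, the scaffold of the ligase that degrades p27, down (-0.95, SE 0.07, and -1.28, SE 0.07). After siRBM39, 2 rose in DMSO (SKP1, 0.19), and 1 rose (SKP1, 0.13) and 1 fell (CUL1, -0.30) in 4OHT. Medians were -0.15, 0.04, -0.11, 0.09 and -0.02. The rises and falls of all 6 lists stand beside those of all genes given with the E2F targets, and no list was tested as a set.

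Splicing of the 10 genes was read as percent spliced in (PSI), the share of informative reads that include an exon, keep an intron or use a splice site. RB1 has 26 exon and 26 intron events, RBL1 has 25 and 19 and RBL2 has 22 and 21, and the 7 inhibitor genes share the rest. RBL1, with few reads, had no event with a PSI in every library. With the study's filters (no library scored below VLOW for coverage, PSI spanning 5 points or more and, for introns, balanced reads at the ends and in the body), 1 event remained for testing. When the coverage and balance filters were dropped, 1 splice site, 21 exons and 15 introns could be tested, many of them with few reads. Event coordinates are given as the table has them. They lie in GRCh38, although the table is named for hg19, and the sequences shown were read from GRCh37 at the matching annotated exons.

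CDKN1A was the inhibitor gene with the most informative events. Its first exon, which is not coding, has a short and a long donor site 141 bases apart (chr6:36678771-36678939), and its intron 2 (chr6:36684547-36685750) follows exon 2 of CDKN1A-201, which carries coding sequence. The donor and acceptor sequences are shown because these are the sites whose use changed. Capitals mark exon bases, and positions are GRCh37 on the plus strand (short donor chr6:36646573-36646587, long donor chr6:36646714-36646728, intron 2 donor chr6:36652321-36652335, intron 2 acceptor chr6:36653501-36653530).
Short donor of the first exon: GAGgtgagagagcgg
Long donor of the first exon: CAGgtgaatgacggg
Donor of intron 2: CAGgtgcggacatgt
Acceptor of intron 2: tggctgacttctgctgtctctcctcagATT
Of the 20 bases before the acceptor AG, 16 are pyrimidines, and 50.7% of the intron's 1204 bases are G or C.

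Intron 2 of CDKN1A was kept more often after SF3B1 depletion. Its PSI was 0.05, 0.455 and 0.50% (lowest, median and highest) in DMSO siNT and 4.52, 5.68 and 7.39% after siSF3B1. In 4OHT it was 0.06, 0.145 and 0.24% in siNT and 3.16, 4.30 and 5.34% after siSF3B1. All 8 knockdown libraries lay above all siNT libraries in each treatment (two-sided exact permutation test, p = 1.6e-04 in each, the smallest it can give). Means by siRNA were 6.57% and 4.92% in DMSO and 4.71% and 3.75% in 4OHT for siSF3B1-13 and siSF3B1-16. After siRBM39 in DMSO the PSI was 0.51, 0.925 and 1.73%, again above all siNT libraries (exact p = 1.6e-04), and in 4OHT it was 0.20, 0.365 and 0.58% (exact p = 0.0016). With RAS the mean went from 0.36% to 0.149% (exact p = 0.011), and the groups overlapped. The values rest on 7805 to 16207 reads per group. By the authors' balance score the reads at its ends and in its body were unbalanced in at least 1 library, so this intron was not in the filtered test. Without the coverage and balance filters it was called after siSF3B1 in DMSO (limma adjusted p = 3.9e-17), and in 4OHT its difference of 4.08 points lay under the minimum of 5 points. In that fit it did not pass with RAS (limma adjusted p = 0.88) or after siRBM39 in 4OHT (0.45). After siRBM39 in DMSO the limma adjusted p was 0.022, and the difference of 0.595 points lay under the minimum.

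The long donor of CDKN1A was the event tested with the study's filters. Its share was 10.99, 36.8 and 49.0% in DMSO siNT and 30.4, 51.5 and 73.7% after siSF3B1. In 4OHT it was 15.5, 26.5 and 41.2% in siNT and 31.3, 46.7 and 59.0% after siSF3B1. The differences in mean PSI were 18.03 points (limma adjusted p = 0.042, called in 5.66% of 371 such events) and 16.7 points (adjusted p = 0.047, called in 5.93%). In each treatment 6 of 8 libraries lay above all siNT libraries (exact permutation p = 0.018 and 0.0090). Neither limma call held when any 1 replicate was left out. In DMSO the exact permutation p was 0.071 and 0.069 without replicate 1 or 3, and 0.0498 and 0.0065 without replicate 2 or 4. In 4OHT it was 0.076 without replicate 1 and 0.011 to 0.022 without replicate 2, 3 or 4. With siSF3B1-16 alone the difference in DMSO was 10.99 points (exact p = 0.21). After siRBM39 the means were 42.8% in DMSO and 37.4% in 4OHT and did not pass. The groups held 155 to 574 reads.

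**Figure D4:**
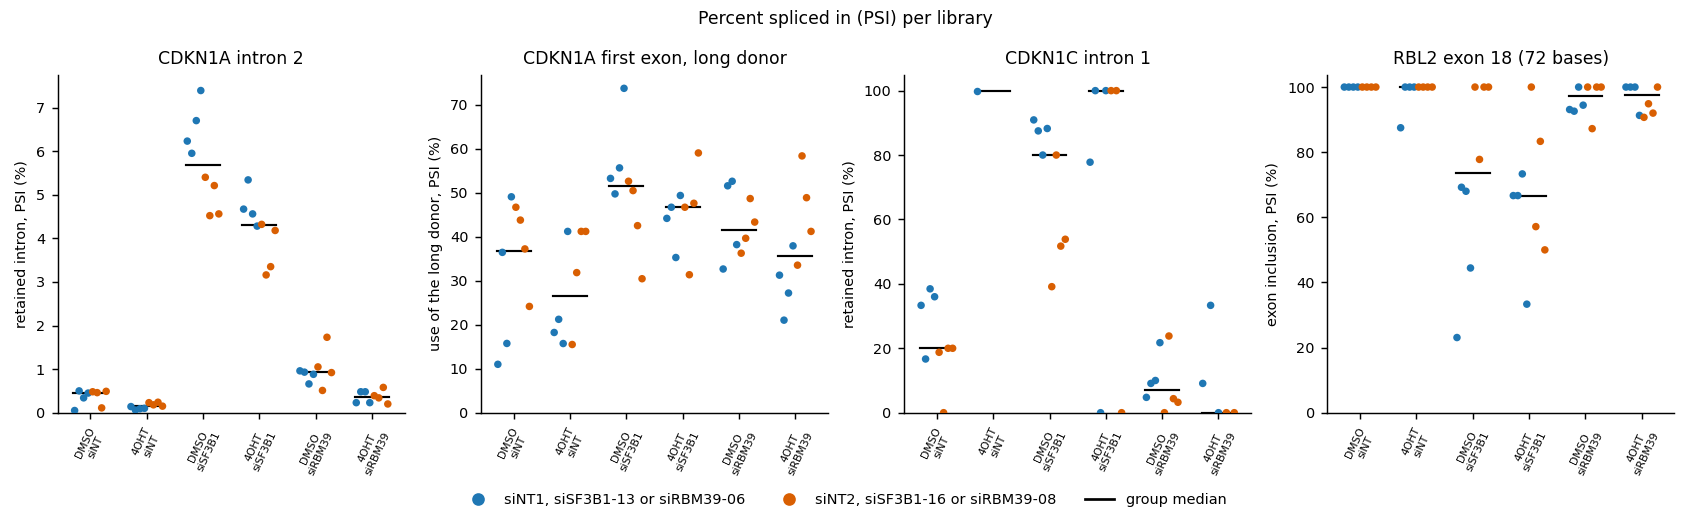
PSI per library of 4 events, with 1 point per library with reads, coloured by siRNA, and a bar at the group median, on axes of different scale. CDKN1A intron 2 is above 3% in all siSF3B1 libraries and at or under 0.5% in all siNT libraries, CDKN1C intron 1 has 1 value in 4OHT siNT, and RBL2 exon 18 spreads from 23.1 to 100% after siSF3B1.

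CDKN1C holds a short intron of 167 bases after a first exon that is not coding (chr11:2885467-2885633, minus strand), of which 72.5% is G or C. Its ends are shown for the same reason, from GRCh37 on the minus strand (donor chr11:2906852-2906866, acceptor chr11:2906694-2906723).
Donor of intron 1: CAGgtagccgccgcg
Acceptor of intron 1: ggccatgtccgacgcgtccctccgcagCAC
The PSI of this intron was 0, 20 and 38.5% in DMSO siNT and 39.1, 80.0 and 90.9% after siSF3B1, without overlap (exact permutation p = 1.6e-04). siSF3B1-13 gave a mean of 86.7% and siSF3B1-16 a mean of 56.2%. After siRBM39 in DMSO it was lower than in siNT, at 0, 6.92 and 23.8% (exact p = 0.030). Summed reads gave 23.3% (102 reads, 95% Wilson interval 16.1 to 32.4), 72.2% (136 reads, 64.1 to 79.0) and 9.46% (110 reads, 5.28 to 16.4), and such intervals cover counting error only. In 4OHT the gene was so low that 1 to 16 reads per group remained, and no comparison was made. The coverage score was under VLOW in 40 of the 48 libraries. By the authors' balance score its reads were also unbalanced in at least 1 library. This intron entered no limma fit, because it lacked a PSI in some libraries. The number of CDKN1C transcripts after siSF3B1 in DMSO did not pass the test, as given above.

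Intron 2 of CDKN2A, between the exons that p16 and ARF share, stayed between 0 and 4.00% PSI in all 48 libraries. Its mean after siSF3B1 in 4OHT was 1.54% against 0.314% in siNT (exact permutation p = 0.021), and after siRBM39 1.22% (exact p = 0.026). CDKN1B had 1 exon and 1 intron with a PSI in every library, and CDKN2B, CDKN2C and CDKN2D had no such event.

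RBL2 mRNA fell after siSF3B1, and an exon of it was skipped more often. Exon 18 of the 22 in RBL2-201 has 72 bases and is coding (chr16:53479154-53479225). It is shown in capitals with 27 intron bases before it and 12 after, from GRCh37 chr16:53513039-53513149, plus strand, because it gave the largest PSI difference of the 21 exons tested.
RBL2 exon 18: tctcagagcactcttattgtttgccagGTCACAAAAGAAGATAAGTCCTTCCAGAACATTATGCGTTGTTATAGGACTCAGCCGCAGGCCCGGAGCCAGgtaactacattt
Of the 20 bases before its acceptor AG, 13 are pyrimidines, where the 21 acceptors of RBL2-201 have 12 to 18 with a median of 15. The PSI was 100% in all 8 DMSO siNT libraries and 23.1, 73.5 and 100% after siSF3B1. In 4OHT it was 87.5 to 100% in siNT and 33.3, 66.7 and 100% after siSF3B1. The mean differences were -27.2 points (exact permutation p = 0.026, 5 of 8 libraries below all siNT) and -32.1 points (exact p = 0.0014, 7 of 8). Summed reads gave 100% of 288 reads in DMSO siNT and 74.5% of 99 reads (Wilson interval 65.1 to 82.1) after siSF3B1, and 99.1% of 203 reads and 66.4% of 61 reads (53.9 to 76.9) in 4OHT. In DMSO the siRNAs differed widely, with means of 51.2% for siSF3B1-13 and 94.4% for siSF3B1-16, and in 4OHT they were 60.0% and 72.6%. The difference in DMSO did not hold when any 1 replicate was left out (exact p = 0.061 to 0.18). The length is a multiple of 3, so skipping it keeps the reading frame.

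Without the coverage and balance filters, limma called 2 exons of the RB family after siSF3B1 in DMSO and 6 in 4OHT, of 21 tested. Of all 39899 exons, 18.9% and 23.2% were called. All calls in the RB family were falls. The siNT means of these exons were 98.4 to 100%, so a rise of 5 points was not possible. RB1 exons 15 and 26, RBL2 exon 7 and the 59-base exon of RBL2 passed the PSI range filter only through siSF3B1 libraries. In DMSO the calls were exon 18 of RBL2 (adjusted p = 0.0019) and an exon of 59 bases in RBL2 (-5.00 points, adjusted p = 0.0057). The latter had an exact permutation p of 0.20 with 3 of 8 libraries below siNT, 359 reads in DMSO siNT and 131 after siSF3B1, and a coverage score under VLOW in 34 of the 48 libraries. In 4OHT they were exon 18 (adjusted p = 1.7e-04) and exon 7 of RBL2 (65 bases, -10.5 points), and exons 15, 16, 17 and 26 of the 27 in RB1-201 (32, 77, 197 and 50 bases, with -5.79, -7.12, -6.93 and -7.35 points). RB1 exon 26 went from 100% in all siNT libraries to 75.0, 93.7 and 100% after siSF3B1 in 4OHT (exact permutation p = 0.0070, 6 of 8 below all siNT). For the other RB1 exons and RBL2 exon 7 the exact p was between 0.077 and 0.20. The 4OHT groups held 207 to 396 reads in siNT and 96 to 235 after siSF3B1 for each of these 5 exons, and RB1 exons 16 and 17 scored under VLOW in 46 of the 48 libraries. RB1 exons 15, 16 and 17 are neighbours, and the reads of such events share junctions. In the same fit 1 of 15 introns was called in DMSO after siSF3B1, intron 2 of CDKN1A (18.8% of all 33577 introns), and 0 in 4OHT (23.6%), where 3 had an unadjusted limma p under 0.05 and intron 2 of CDKN1A missed the 5-point minimum.

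Summed over all exon events of RB1, mean PSI per library fell from 98.4 to 97.0% after siSF3B1 in DMSO (exact permutation p = 0.018) and from 98.3 to 96.6% in 4OHT (exact p = 0.0030). For RBL2, whose sum includes exons that are rarely used, it fell from 94.3 to 91.8% in DMSO (exact p = 0.0011) and was 93.1 and 91.4% in 4OHT (exact p = 0.083). After siRBM39 the exon sums of RB1 and RBL2 gave exact p between 0.20 and 0.81. Summed introns of RB1 rose in DMSO from 0.0823% to 0.429% after siSF3B1 (exact p = 0.0011) and to 0.555% after siRBM39 (exact p = 0.0014). In 4OHT they went from 0.0880% to 0.499% and 0.237% and did not pass (exact p = 0.12 and 0.10). For RBL2 the summed introns were 0.938% in 4OHT siNT and 2.71% after siSF3B1 (exact p = 0.022), and in DMSO 1.17% and 1.53% (exact p = 0.32). After siRBM39 they rose to 1.81% in DMSO (exact p = 0.038) and 1.68% in 4OHT (exact p = 0.025). For RBL1 none of the sums passed (exact p between 0.20 and 1). The sums of RB1 and RBL2 rest on 1858 to 6854 exon reads and 1014 to 4011 intron reads per group. After siRBM39, the intron behind exon 14 of RBL2 (chr16:53467170-53469915, 2746 bases) was the 1 of 15 introns called in DMSO (4.76% of all introns), at 0% in all siNT libraries and 0, 6.76 and 11.4% after siRBM39 (exact p = 0.0014), from 193 and 172 reads. In all, 87 exact tests of events were run, and these p-values are not adjusted.

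**Figure D5:**
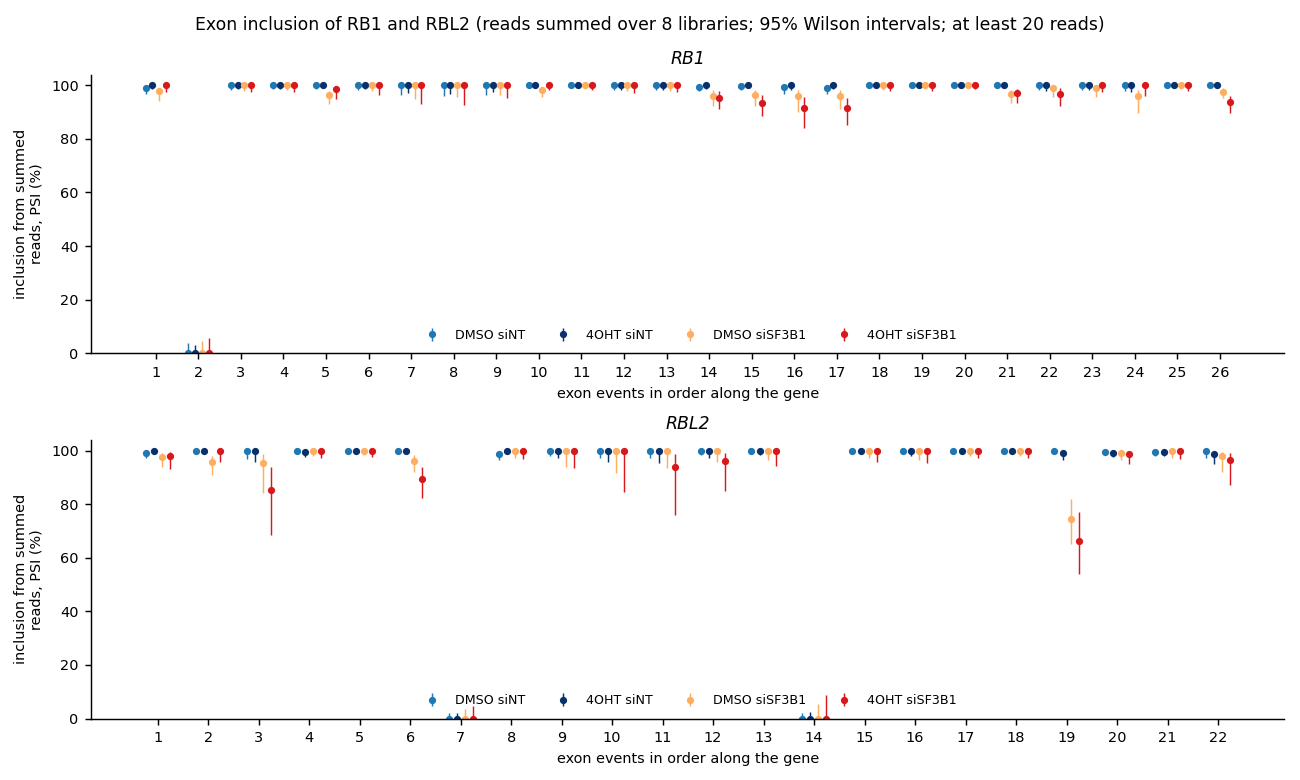
PSI from the summed reads of all 8 libraries per group for the exon events of RB1 and RBL2 in order along the gene, for siNT and siSF3B1 in each treatment, with 95% Wilson intervals and only points with at least 20 reads. Most exons stay near 100%, the 72-base exon (event 19 of RBL2) drops to 74.5% and 66.4% after siSF3B1, and events 2 of RB1 and 7 and 14 of RBL2 are at 0.

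The genes whose log2 CPM followed each of the 7 genes with at least 10000 counts most closely over the 48 libraries were taken as a description. The points share 6 groups and their siNT libraries, so large differences between groups set these values. CDKN1A went with SIK1 (Pearson r = 0.96) and TNFRSF12A. CDKN1B went with PRDM8, PDZRN3 and FAM49A, and CDKN1C with FBLN2, TMEM119 and SUN1 (r = 0.98 to 0.99 for these 6). CDKN2A went with SMOX, CITED4 and TAGLN2 (r = 0.95 to 0.96), and its neighbour CDKN2B with RAC2, MYO1D and MME (r = 0.99). RB1 went with ZMYM2, ADD3 and USP32 (r = 0.95 to 0.96), and RBL2 with SEPT10, SPG11 and ALAD (r = 0.97 to 0.99). None of these 7 was among the 3 closest of another.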

How the data were processed

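The 48 libraries were poly(A)-selected. Per the study's methods the authors aligned reads with vast-tools against its hg19 database, and the submitters' processing notes name edgeR and limma. The deposited values used here were whole-number read counts per gene, cRPKM (an RPKM that the authors corrected for mappability), and, per event, PSI in percent with a quality string that holds the authors' coverage score, read balance and read numbers. The deposited table of filtered CPM was not used, since the raw counts were. Groups were taken from the titles. For 4 libraries titled siNT2 in 4OHT another label says siNT1, which leaves the group unchanged. The study's methods speak of 3 replicates, where the labels give 4 per siRNA.

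The genes and lists were chosen with earlier results of these data known. For counts, 1 edgeR quasi-likelihood model (4.0.16, R 4.3.3) of the 6 groups with TMM scaling was run on 9991 genes, each holding 10000 counts or more over all libraries. The 3 low genes were read from the same fit over the 17872 genes with at least 1 count. A second model had 1 group per siRNA and treatment, and its siNT reference was the mean of both. Adjusted p-values are Benjamini-Hochberg over all genes of a fit, called under 0.05. Intervals of log2 fold changes are 1.96 SE. PSI was tested with limma (3.58.1) on the logit of 0.01 + 0.98 × PSI as a share, by class of event, and called at an adjusted p under 0.05 and a difference of at least 5 points. Single events and junctions were compared by two-sided exact permutation of 8 against 8 libraries, whose smallest p is 1.6e-04. The permutation treats the 8 libraries as separate units, although they hold 2 siRNAs with 4 libraries each. The edgeR model of 6 groups and the limma fits pool the siRNAs in the same way. Their p-values and those of the permutation therefore do not measure the spread between siRNAs. Named genes were all 10, SF3B1, RBM39, the called gene of each list with the largest rise and fall in each comparison, and the 3 genes with the highest correlation, of which 1 is not reported here. All 48 columns of each table belong to the series. Both fits were tested on simulated data. Alternatives were DESeq2 (1.42.0), limma-voom, other scaling, filters and minimum changes, a replicate block, single siRNAs and left-out replicates. Tables were read with Python 3.11.15, pandas 2.3.3 and NumPy 2.4.6 and drawn with matplotlib 3.10.9.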

Additional observations from a re-analysis of the deposited data

Results flagged for a closer look

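In 7 of 60 groups of 8 libraries the lowest or highest CPM stood apart from the nearest by more than Dixon's limit, which chance exceeds in about 1 of 20 groups. Of these, 5 belong to 4OHT siRBM39-08 replicate 4, with CDKN2A at 106.8 CPM (nearest library 66.6), CDKN2B at 186 CPM (nearest 244), CDKN2D at 8.30 CPM (nearest 4.07), RB1 at 27.8 CPM (nearest 52.4) and RBL2 at 25.1 CPM (nearest 48.4). The summed epithelial markers of this library, at 65.1 cRPKM against at most 10.6 in the rest of its group, moved with these values, and their part was not tested. DMSO siRBM39-06 replicate 1 had CDKN1B at 40.9 CPM (nearest 46.7), and its epithelial sum was 31.9 cRPKM against at most 22.2 in the rest of its group. 4OHT siSF3B1-16 replicate 3 had RBL2 at 20.6 CPM (nearest 22.2).

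The response to siSF3B1 differed between 4OHT and DMSO by the interaction test for CDKN1A (-0.51 on the log2 scale), CDKN1B (0.87), CDKN1C (0.85), CDKN2B (0.29) and RB1 (-0.35). The response to siRBM39 differed for CDKN1C (0.58).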

How the results depend on the processing

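Of the log2 fold changes of single genes under the alternatives, 706 kept direction and side of the threshold, 14 lost the call, 7 gained it and 15 changed sign, none of the last called. Fits with a single siNT, with a single siRNA of a target or on only the groups compared were not part of this tally. With a minimum of 2-fold, 3 of the 7 genes with at least 10000 counts were called with RAS. After siSF3B1 it was 1 in DMSO and 1 in 4OHT, after siRBM39 0 and 0, and 0 in either interaction. In the fit with at least 1 count, CDKN2C and RBL1 were also called at over 2-fold with RAS and after siSF3B1 in each treatment. No share of all genes was set beside the counts in this paragraph. Calls after siRBM39 in DMSO were 1 with siNT1 alone or siRBM39-08 alone and 1 to 3 without 1 replicate. In 4OHT they were 3 with siNT1 alone and 3 to 5 without 1 replicate. The siSF3B1 interaction gave 3 with siNT1 or siNT2 alone and 3 to 5 without 1 replicate. The siRBM39 interaction gave 0 in limma-voom, with genes of at least 1 count and with siNT1 or siNT2 alone, 2 with siRBM39-08 alone or without 4OHT siRBM39-08 replicate 4, and 0 to 1 without 1 replicate.

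Sign changes without 1 replicate were as follows, as lowest and highest log2 value. CDKN2A after siSF3B1 in DMSO ran from -0.00097 to 0.052, CDKN1C after siRBM39 in DMSO from -0.081 to 0.013, and CDKN2C after siRBM39 in 4OHT from -0.15 to 0.43. In the siRBM39 interaction CDKN2A ran from -0.078 to 0.17 (-0.030 without 4OHT siRBM39-08 replicate 4), CDKN2B from -0.14 to 0.035, CDKN2C from -0.012 to 0.66, CDKN2D from -0.25 to 0.028, RB1 from -0.32 to 0.027 and RBL2 from -0.049 to 0.22. In the siSF3B1 interaction RBL1 ran from -0.096 to 0.16 and was -0.00059 in limma-voom, and CDKN2A was -0.011 with genes of at least 1 count.

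Events called after siSF3B1 in DMSO were 0 without the PSI range filter, 2 without the balance filter, 2 without the coverage minimum, 3 without both, and 0 without any 1 replicate. In 4OHT they were 0 without the range filter, 6 without the coverage minimum, 6 without both, and 0 without any 1 replicate. After siRBM39 in DMSO 1 was called without the coverage minimum, with or without the balance filter. The alternatives on coverage minimum were chosen after seeing the data, and no event of these genes could be tested with a score of at least LOW in every library. Without 1 replicate the CDKN1A long donor differed by 16.0 to 20.7 points in DMSO and by 12.8 to 18.2 in 4OHT, and the difference of RBL2 exon 18 in DMSO was -30.9 to -23.4 points. With siSF3B1-16 alone, the DMSO difference was 10.99 points for the donor and -5.555 points for the exon. The cause of these changes was not tested.

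The replicate block changed no count of calls (6, 5, 6, 3, 5, 5 and 1 genes). Deviations of same-numbered libraries correlated with a median r of 0.014 over 264 pairs, with single pairs from -0.88 to 0.77. Over 792 pairs with different numbers the median was -0.0020, with single pairs from -0.88 to 0.92. Of 48 libraries 13 correlated best with their own number, so the numbers were not taken as pairs. Some libraries shared deviations whatever their number, and the source of this was not tested. Depth limits CDKN2C, with as few as 2 counts in a library, and the events of RBL1, none of which had a PSI in every library.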
